A study of Arabidopsis thaliana with 3 samples.

Results

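Reactive oxygen species form in leaves whenever light delivers more energy than carbon fixation can use, and cold makes this imbalance larger because enzymes slow down while light capture does not. Chloroplasts dispose of hydrogen peroxide by ascorbate peroxidases, which spend ascorbate, and by peroxiredoxins, which spend the reducing power of thioredoxins. Monodehydroascorbate reductases and glutathione reductases return ascorbate and glutathione to their reduced forms, and related enzymes run the same cycle in the cytosol. The 7 genes described here belong to this system. They were chosen by locus: 4 encode chloroplast enzymes, namely the peroxiredoxins PRXQ (AT3G26060) and 2CPA (AT3G11630), the thylakoid ascorbate peroxidase tAPX (AT1G77490) and the glutathione reductase GR2 (AT3G54660), which is also imported into mitochondria. The other 3 are the cytosolic glutathione reductase GR1 (AT3G24170), the cytosolic monodehydroascorbate reductase MDAR2 (AT5G03630) and VTC4 (AT3G02870), a phosphatase that releases L-galactose on the path to ascorbate. All 7 were among the 7234 named loci of the arrays, each through 1 feature.

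The study set hy5-1 plants against Ler plants. HY5 is a bZIP transcription factor that promotes light responses, hy5-1 is a mutant allele of it, and Ler (Landsberg erecta) is the wild type. Plants of both genotypes were 3 weeks old, grown at 22 °C in days of 16 h light and 8 h dark, and had spent 1 further day at 4 °C, so cold was shared by both and no warm control entered the comparison. Each of 3 two-colour arrays carried hy5-1 RNA in Cy5 and Ler RNA in Cy3 from 1 biological replicate. The organ sampled is not given in the labels, and the deposited ratios hold no levels against which a tissue could be checked.

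Every value below is a log2 ratio within an array, read as hy5-1 over Ler, so that 0 means equal signal and a positive value a higher signal in hy5-1. This reading was taken because hy5-1 RNA was in the first channel and in the red dye, but the titles name Ler first, the numerator is not stated, and the direction is not settled. With the opposite reading every sign below turns, and higher becomes lower. The sign could not be settled on the targeted gene, since HY5 had no named feature. DFR, an anthocyanin enzyme gene that HY5 is known to promote, stood at 2.61, -1.64 and 2.28 on replicates 1, 2 and 3. The anthocyanin glycosyltransferase gene UGT75C1 had 1.97, -0.30 and 2.00 on these arrays, and the malonyltransferase gene 5MAT had 2.02, -0.84 and 1.89. Loss of HY5 would lower such genes. For these anthocyanin genes, replicates 1 and 3 go against the reading taken here and replicate 2 goes with it. The flavonol glycosyltransferase gene UGT78D1 was different, at -0.75, -3.72 and -1.48, below 0 on all arrays. Neither an opposite direction of all arrays nor one of replicate 2 alone could be tested on the ratios. Across all named loci the ratios nevertheless correlated positively between all arrays, at r = 0.759 for replicates 1 and 3, 0.512 for 1 and 2, and 0.504 for 2 and 3, over genes that share dyes and probes and are not independent. Per the labels all arrays had the same dye orientation, so dye and genotype cannot be told apart, and in bulk RNA fewer cells of a type and less RNA per cell cannot be told apart either.

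Precision was estimated from 7 genes with 10 or 11 copies each. These copies were located by an ordering of the array that was found on these same values, so the estimate is not independent of that ordering. The SD between copies of a gene on an array ran from 0.04 to 0.26 with a median of 0.12, and the median was 0.17 on replicate 2 and 0.10 on each of the other arrays. The copies were taken to share the same sequence, which was not checked, so this would be the error of a spot and not of a probe. In 132 loci with 2 or 3 features, the first and second features correlated across loci at only r = 0.242, and each member rests on a single feature.

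PRXQ and GR1 were higher in hy5-1 under this reading, and the remaining 5 members did not pass the test. The threshold was a Benjamini-Hochberg adjusted p of 0.05 over all named loci in limma, a linear model with moderated variances. It was passed by 17.2% of all named loci, 7.88% in the higher and 9.29% in the lower direction, and by 2 of 7 members, both higher. At an unadjusted p under 0.05 the same 2 members passed, against 36.3% of all named loci. With the sign of replicate 2 turned, a setting added after the data had been seen, limma called 0 of 7 members and 0 of all loci, with 207 loci (2.86%) at an unadjusted p under 0.05. PRXQ then had a mean of -0.06 and GR1 of 0.08, so both means depend on the direction taken for replicate 2. No locus passed in that setting, so the loss of these calls is not particular to PRXQ and GR1. Both calls held with replicate 2 left out. By compartment, 1 of 4 chloroplast members and 1 of 3 other members passed. The median of the 7 mean ratios was 0.11, and that of all named loci was 0.

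**Figure D1:**
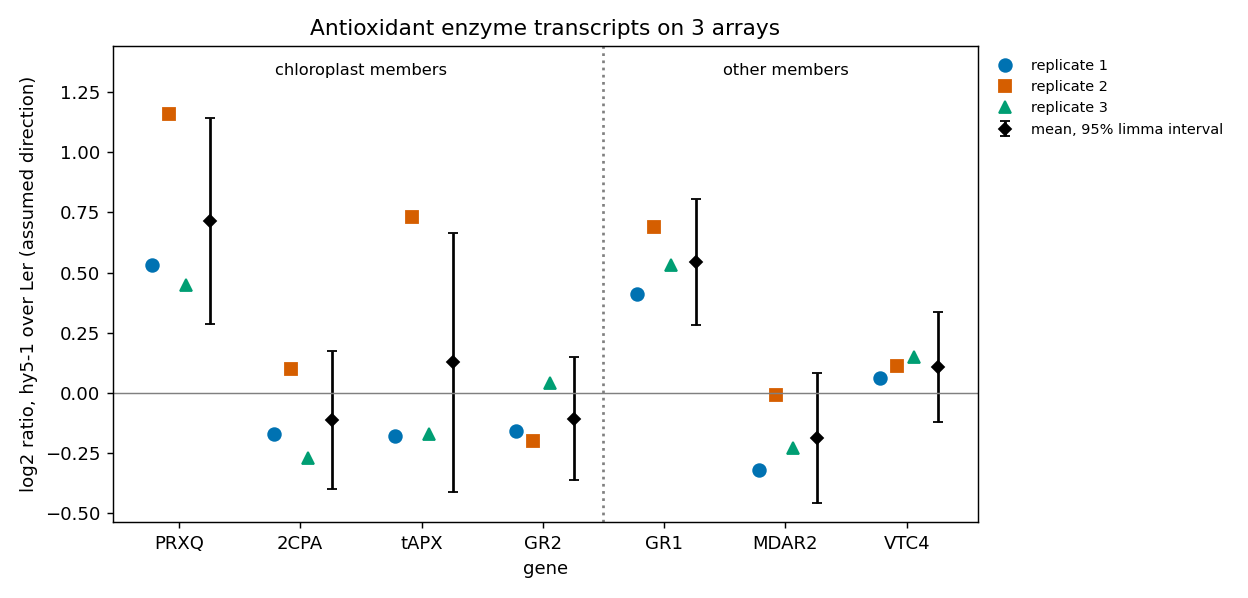
Log2 ratio of hy5-1 over Ler (vertical axis) for the 7 antioxidant enzyme genes, with a point for each of 3 arrays and, in black, the mean with its 95% limma interval. PRXQ and GR1 lie above 0 on all arrays, tAPX is at 0.73 on replicate 2 and below 0 on the others, and the points of VTC4 nearly coincide.

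Among the peroxiredoxins, PRXQ reduces peroxides in the chloroplast at the expense of thioredoxin. Its log2 ratios were 0.53, 1.16 and 0.45 on replicates 1, 2 and 3. All arrays were above 0, and replicate 2 was the highest. The mean was 0.71 ± 0.39 (SD, n = 3), a 1.64-fold higher signal in hy5-1 with a limma adjusted p of 0.0466 and a 95% interval of 0.29 to 1.14. 2CPA, an abundant 2-Cys peroxiredoxin of the stroma, gave -0.17, 0.10 and -0.27. Its arrays fell on both sides of 0, with a mean of -0.11 ± 0.19 (SD, n = 3), a limma adjusted p of 0.54 and an interval of -0.40 to 0.17. PRXQ exceeded 2CPA by 0.70, 1.06 and 0.72 on the log2 scale on the same arrays. 2CPA has a close paralog, 2CPB, and a contribution of that transcript to the ratio was not tested.

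The call of PRXQ was close to the threshold. It held without replicate 2, where the mean was 0.49, the limma adjusted p 0.0444 and the share of all loci called 19.1%. It was lost when arrays were scaled to a common spread (adjusted p = 0.116, with 5.41% of all loci called) and when all features of the array, named or not, were adjusted together (adjusted p = 0.09).

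The thylakoid ascorbate peroxidase, which removes hydrogen peroxide next to photosystem I, differed between arrays more than any other member. tAPX had -0.18, 0.73 and -0.17, so that replicates 1 and 3 were nearly equal and slightly below 0 and replicate 2 stood apart above it. The mean of 0.13 ± 0.52 (SD, n = 3) had a limma adjusted p of 0.731 and an interval of -0.41 to 0.66. Its SD was larger than that of 93.9% of all named loci. Without replicate 2 the mean was -0.175, on the other side of 0, with an adjusted p of 0.269. The 8 spots around its feature on the array had medians of -0.08, -0.03 and -0.03, and none of them exceeded 0.21 on replicate 2.

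Of the glutathione reductases, which regenerate reduced glutathione with NADPH, the cytosolic isoform passed the test and the chloroplast isoform did not. GR1 had 0.41, 0.69 and 0.53 on replicates 1, 2 and 3, all above 0 and within 0.28 of each other. Its mean was 0.54 ± 0.14 (SD, n = 3), a 1.46-fold higher signal in hy5-1, with a limma adjusted p of 0.0314 and an interval of 0.28 to 0.80. GR2 had -0.16, -0.20 and 0.04, a mean of -0.11 ± 0.13 (SD, n = 3), an adjusted p of 0.514 and an interval of -0.36 to 0.15. No array of GR2 reached the lowest array of GR1. GR2 minus GR1 was -0.57, -0.89 and -0.49, a mean difference of -0.65 ± 0.21 (SD, n = 3) and below 0 on 3 of 3 arrays. In an exact two-sided sign-flip permutation test this gave p = 0.25, the smallest p that 3 arrays allow.

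The call of GR1 held without replicate 2, with a mean of 0.47 and a limma adjusted p of 0.0491. It was lost with arrays scaled to a common spread, at an adjusted p of 0.0736. Without replicate 1, and likewise without replicate 3, limma called 0 of 7234 loci, the members included, with 1613 and 1585 loci at an unadjusted p under 0.05, so those settings say nothing particular about GR1 or PRXQ.

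The remaining cytosolic and ascorbate-forming members had small ratios. MDAR2, which reduces the monodehydroascorbate radical, had -0.32, -0.01 and -0.23. All arrays were below 0, with replicate 2 almost at 0. The mean was -0.19 ± 0.16 (SD, n = 3), its interval -0.46 to 0.08 and its limma adjusted p 0.272. VTC4 had 0.06, 0.11 and 0.15, and its SD of 0.05 around a mean of 0.11 was smaller than that of all but 5.28% of named loci. VTC4 still did not pass (limma adjusted p = 0.46), and its interval was -0.12 to 0.33. In all, 4 of 7 members had the same sign on the 3 arrays, against 54.5% of all named loci, so a shared sign is common on these arrays.

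**Figure D2:**
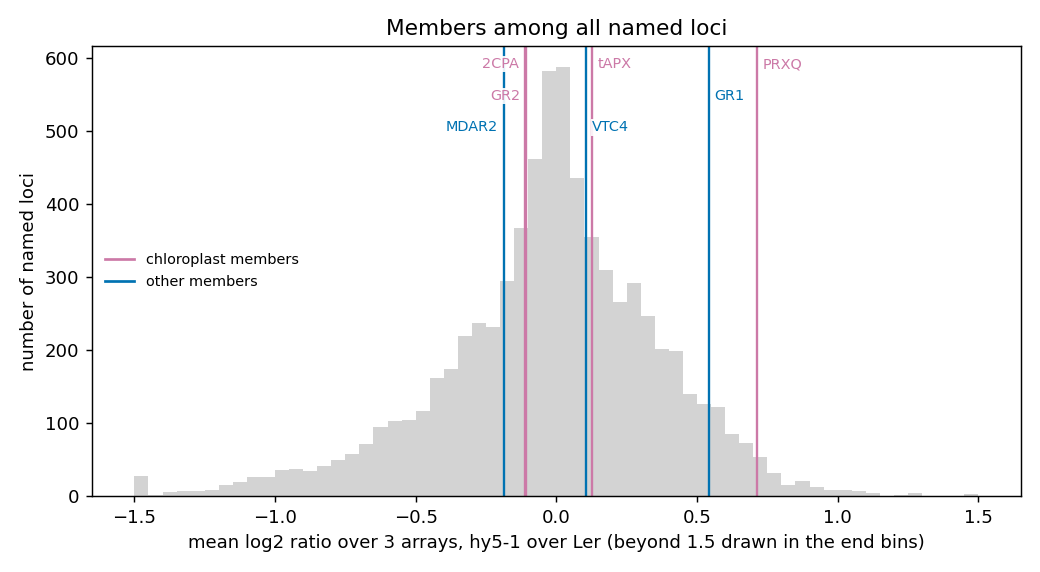
Histogram of the mean log2 ratio over 3 arrays (horizontal axis, hy5-1 over Ler in the assumed direction) for 7234 named loci, with the 7 members drawn as lines. PRXQ and GR1 lie in the upper tail, and the other members lie close to the centre.

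Placed among all named loci, the members formed an order with a gap. PRXQ had a higher mean than 97.8% of loci and GR1 than 93.3%, and their intervals overlapped over most of the range of GR1. The next members, tAPX and VTC4, had higher means than 66.7% and 64.7% of loci. GR2, 2CPA and MDAR2 followed at 34.6%, 33.9% and 27.4%. The intervals of the 5 members below GR1 all include 0 and overlap one another. Differences between neighbours in this part of the order were not tested within arrays, so their order is not established. With every sign turned, PRXQ would have a higher mean than 2.18% of loci and GR1 than 6.54%.

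Compartment did not separate the members. The 4 chloroplast members averaged 0.01, 0.45 and 0.01 on replicates 1, 2 and 3, and the other 3 members averaged 0.05, 0.26 and 0.15. The chloroplast average minus that of the others was -0.05, 0.18 and -0.14, with a mean of 0.00 ± 0.17 (SD, n = 3). It changed sign between arrays, and each compartment held 1 called member. Among the chloroplast members the means ran from -0.11 to 0.71, and among the others from -0.19 to 0.54, so the spread within a compartment was far larger than the difference between compartments. No p is given for this average, because the members were chosen with results of these data known.

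**Figure D3:**
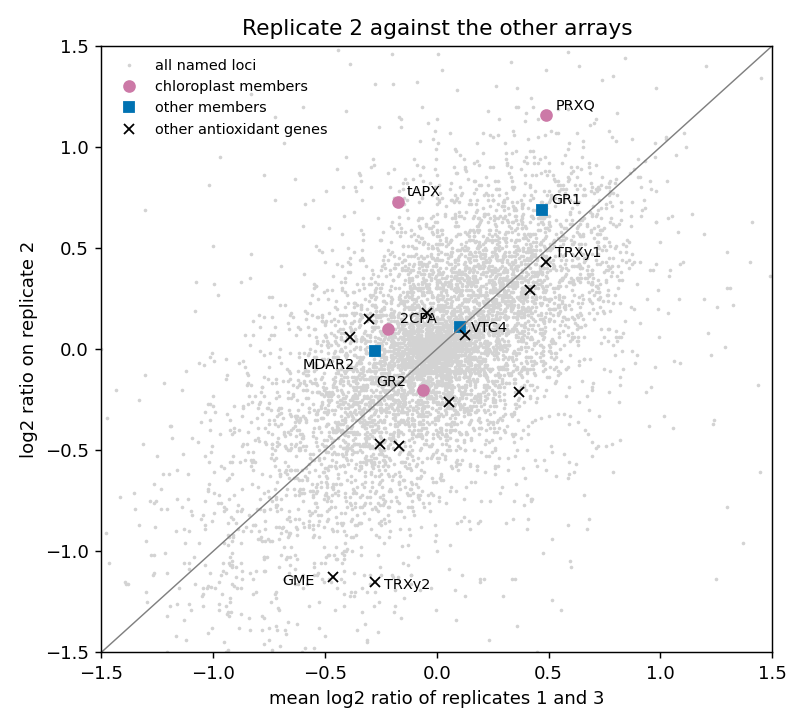
Log2 ratio on replicate 2 (vertical axis) against the mean log2 ratio of replicates 1 and 3 (horizontal axis) for all named loci (grey), the members and 12 other antioxidant genes, with the line of equality and 118 loci outside the limits of 1.5 not drawn. tAPX and PRXQ lie furthest above the line among the members, and TRXy2 and GME lie below it.

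Replicate 2 was the array on which most members stood highest. Its ratio exceeded the mean of replicates 1 and 3 in 6 of 7 members, against 48.8% of all named loci. The excess was 0.91 for tAPX, larger than in 98.0% of loci, and 0.67 for PRXQ, larger than in 95.4%. For 2CPA, MDAR2 and GR1 it was 0.32, 0.27 and 0.22, and for VTC4 it was 0.01. GR2 alone went the other way, at -0.14. The 12 other antioxidant genes measured here lay mostly on the opposite side, with replicate 2 below the mean of the other arrays in 9 of 12. With the sign of replicate 2 turned, tAPX had a mean of -0.36. The part of array quality, or of a turned ratio on replicate 2, in these departures was not tested.

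Genes that work with the members were taken from 11 lists of the antioxidant system with 84 genes, of which 12 had a named feature. No gene of the lists of other ascorbate peroxidases, dehydroascorbate and other monodehydroascorbate reductases, superoxide dismutases and catalases, glutathione peroxidase-like enzymes, glutathione synthesis, tocopherol synthesis or VTC4-like phosphatases was among them. Of the 12 genes, 1 rose, 0 fell and 11 did not pass, against 17.2% of all loci past the threshold. Their median mean ratio was -0.10.

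**Figure D4:**
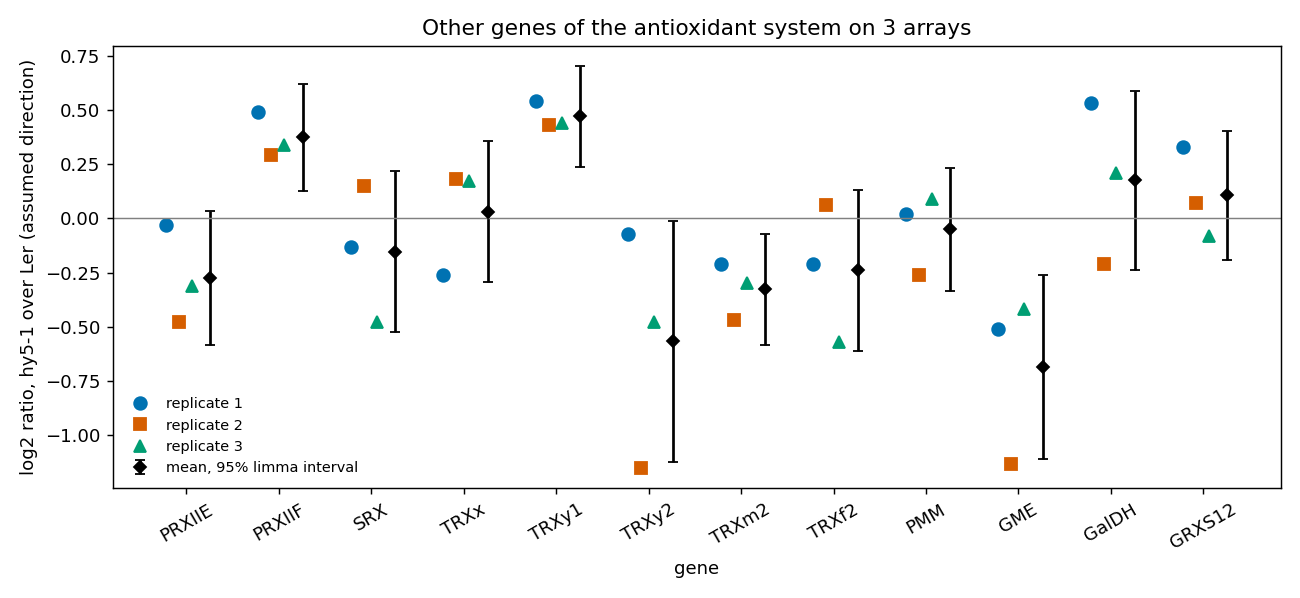
Log2 ratio of hy5-1 over Ler (vertical axis) for 12 other genes of the antioxidant system, with a point for each of 3 arrays and, in black, the mean with its 95% limma interval. TRXy1 and PRXIIF lie above 0 and TRXy2, TRXm2, PRXIIE and GME below 0 on all arrays.

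The gene that passed was TRXy1 (AT1G76760), a chloroplast thioredoxin of the y type, the type known to donate electrons to PRXQ. It had 0.54, 0.43 and 0.44 on replicates 1, 2 and 3. These arrays lay within 0.11 of each other, with a mean of 0.47 ± 0.06 (SD, n = 3), a 1.39-fold higher signal in hy5-1, and a limma adjusted p of 0.0325. With arrays scaled to a common spread the adjusted p was 0.0568, and the call was lost.

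Its sister TRXy2 (AT1G43560) had -0.07, -1.15 and -0.48, all below 0. Its mean was -0.57 ± 0.55 (SD, n = 3) and its limma adjusted p 0.132. TRXy1 exceeded TRXy2 on 3 of 3 arrays, by 0.61, 1.58 and 0.92. This pair and the pair of PRXQ and 2CPA were set side by side after their values had been seen. The exact two-sided permutation p was 0.25 for each of the 3 differences between genes, and 0.25 after adjustment over them.

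The other thioredoxins did not pass. TRXm2 (AT4G03520) had -0.21, -0.47 and -0.30, below 0 throughout, with a limma adjusted p of 0.0815. TRXf2, an activator of carbon fixation enzymes, had -0.21, 0.06 and -0.57, and TRXx, which can reduce 2-Cys peroxiredoxins such as 2CPA, had -0.26, 0.18 and 0.17. Both crossed 0 between arrays, as 2CPA did, but TRXx and 2CPA had opposite signs on replicate 3.

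Among the further peroxiredoxins, the mitochondrial PRXIIF (AT3G06050) came closest to the threshold, with 0.49, 0.29 and 0.34 and a limma adjusted p of 0.0572. The chloroplast PRXIIE (AT3G52960) had -0.03, -0.48 and -0.31, with an adjusted p of 0.176. Sulfiredoxin (SRX), which restores overoxidised 2-Cys peroxiredoxins, had -0.13, 0.15 and -0.48. Of the chloroplast peroxiredoxins measured here, 1 was thus above 0 on all arrays (PRXQ), 1 below 0 on all arrays (PRXIIE) and 1 of mixed sign (2CPA).

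In ascorbate synthesis, VTC4 was measured with 3 other enzymes of the same path. GME (AT5G28840), the epimerase that makes GDP-L-galactose, had -0.51, -1.13 and -0.42. All arrays were below 0 and replicate 2 was the lowest. The mean was -0.69 ± 0.39 (SD, n = 3), and the limma adjusted p of 0.0508 missed the threshold. Without replicate 2 GME passed, with a mean of -0.47 and an adjusted p of 0.0485. PMM, which makes mannose 1-phosphate, had 0.02, -0.26 and 0.09, and GalDH, the dehydrogenase that acts directly after VTC4, had 0.53, -0.21 and 0.21. Neither kept its sign across arrays. The chloroplast glutaredoxin GRXS12, which takes electrons from glutathione, had 0.33, 0.07 and -0.08.

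The position of the features on the array was examined for all members. The medians of the 8 spots around each member ran from -0.27 to 0.07 over the 3 arrays. Around PRXQ they were 0.02, 0.01 and 0.06, and around GR1 0.04, 0.06 and 0.05, below the ratios of those genes. Single spots next to GR1 reached 1.14, 0.61 and 1.00, the first and last above the ratios of GR1 on those arrays, and those next to PRXQ reached 0.46, 0.46 and 0.19. Around MDAR2 they were -0.16, -0.04 and -0.27, close to its own -0.32, -0.01 and -0.23 on the same arrays.

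For each member the named locus with the most similar ratios was sought by Euclidean distance over the 3 arrays. The nearest was AT1G77090 for PRXQ at a distance of just over 0.1, with 0.53, 1.06 and 0.44, and AT2G45910 for GR1 at 0.02, with 0.41, 0.70 and 0.55. For tAPX it was AT4G25580 at 0.07, with -0.11, 0.75 and -0.18. AT1G13680 was nearest to GR2, AT1G34150 to MDAR2 and AT3G20360 to VTC4, at distances of 0.02 to 0.03, and AT4G32340 was 1 of 2 loci equally near to 2CPA at 0.03. Within a distance of 0.1 lay 63 loci for VTC4, 26 for GR2, 25 for 2CPA and 21 for MDAR2. There were 10 for GR1, 2 for tAPX and 0 for PRXQ, so fewer loci lay near tAPX and PRXQ than near the other members.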

How the data were processed

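The deposited table was read as holding log2 ratios, 1 per array, for 45220 features on 3 arrays without missing values. For these ratios the sources used here give no log base, normalisation, scanner software or numerator. The authors' table holds no intensities, so signal over background is unknown, and the number of arrays limits the precision. RNA was extracted with Trizol, amplified with aminoallyl label and coupled to dye, per the labels' protocols. Features were named through the platform annotation by Entrez identifier and the RefSeq gene table of TAIR10.1: 7440 features had 1 gene, 0 had several, and 37780 were not named here. Annotation numbers were taken to value rows by an ordering of a grid of 266 columns and 170 rows that an earlier look at these values had found. For 7 genes with 10 or more features, the variance within a gene was compared with that over all features. It was 0.143 of the latter under this ordering, and 0.908 with row numbers as given. The ordering was found on these same values, so this is not an independent check of it. The 132 loci with 2 or 3 features supported the ordering only weakly, with r = 0.242 between features, against 0.144 with row numbers as given. All gene names depend on this ordering.

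The mean of each locus's features was tested against 0 with limma 3.58.1 (R 4.3.3), in a model with an intercept alone and empirical Bayes moderation (2 residual and 3.04 prior degrees of freedom) and Benjamini-Hochberg adjustment over 7234 loci. The fit was tested on simulated data with independent normal errors, which held no dye effect and no array that departs from the others. Replicates were biological per the labels. The members and lists were chosen with earlier results of these data known. Named genes were all members, list genes past the threshold (at most 6 per list) and the nearest locus of each member. List genes that did not pass were named after their values were seen.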

Additional observations from a re-analysis of the deposited data

How the results depend on the processing

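Under median centring, robust moderation and the median of a locus's features, all 7 members kept their direction and their side of the threshold, as did the joint fit over all features except for PRXQ (mean 0.713, limma adjusted p 0.09), which left 1 member called. When each array was scaled to the same median absolute deviation, 0 members and 391 loci were called by limma (smallest member adjusted p 0.0736), with PRXQ at 0.805 and GR1 at 0.587. With row numbers as given, 0 members and 491 loci were called, PRXQ stood at 0.497, GR1 at 0.003, 2CPA at 0.047 and VTC4 at -0.027, the chloroplast minus other difference at 0.226 and GR2 minus GR1 at -0.277. That setting gives the members the values of other features. With the sign of replicate 2 turned, added after the data had been seen, 0 members and 0 loci were called by limma, with 207 loci at an unadjusted p under 0.05. PRXQ then had -0.06, tAPX -0.36, GR2 0.027 and GR1 0.083, and GR2 minus GR1 was -0.057. Leaving out an array gave 0 to 2 called members and 0 to 1380 called loci, with 0 by limma without replicate 1 or 3. At an unadjusted p under 0.05, all 3 arrays gave 2627 loci. With an array left out, the means ran from 0.49 to 0.845 for PRXQ, 0.47 to 0.61 for GR1 and -0.175 (without replicate 2) to 0.28 for tAPX. Leaving out an array shows only how far the results depend on it, and the cause of these changes was not tested. No further paired analysis was possible because each within-array ratio is already a paired difference between hy5-1 and Ler.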
